A study of Homo sapiens with 24 samples.

Results

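A549 human lung carcinoma cells treated with an extract of Pulsatilla chinensis were compared with control A549 cells, gene by gene. The genes were all those with a mean estimated count above 5 over the 6 libraries compared, which were 3 control and 3 P. chinensis libraries. This rule kept 13613 of the 14585 genes in the table and left out 972. The whole series holds 24 libraries, from A549 and from Huh7 hepatoma cells, each line in 4 groups of 3 libraries, namely control and 3 herbal extracts (P. chinensis, Bupleurum chinense and Polyporus umbellatus). The genotype is labelled WT throughout, and both groups described here are the same cell line. That label does not give the p53 status, which the study describes as wild-type in A549 and mutant in Huh7. The control samples carry the treatment label of the control group, and the sources used here do not say whether they received the solvent, DMSO, nor which dose and time were used for the sequenced cells. The study asked which transcriptional programs the extract changed in lung carcinoma cells, and the comparison with control addresses that for A549.

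A549 is an established line derived from a lung adenocarcinoma, with a loss of the CDKN2A locus. The transcription factor p53 is held low by MDM2, a ubiquitin ligase whose own gene p53 activates, and its targets stop the cell cycle, repair DNA or favour cell death. One such target, CDKN1A (p21), inhibits the cyclin-dependent kinases, so that the pocket proteins stay bound to E2F factors and the genes for DNA replication and mitosis are repressed through the DREAM complex, which binds cell cycle promoters at CHR and E2F elements. Genes for replication-dependent histones are used in S phase, and their transcripts lack poly(A) tails, so they are visible here, since the libraries were ribosome-depleted and not selected for poly(A).

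The control libraries summed to between 8160045 and 10616955 estimated counts and the P. chinensis libraries to between 8326089 and 10570251, so that depth was alike in the groups. Mitochondrially encoded transcripts took from 2.998 to 3.901% of the counts. The first principal component carried 57.6% of the variance and separated the groups, while control replicate 1 stood apart from the other two control libraries on the second, which carried 12.9%. Replicates differed from each other by 2.80 to 3.64 times the sampling noise, so none was a repeat of another library. The labels do not say whether replicates came from separate cultures, and p-values therefore measure only the spread between these samples. Markers of the line were abundant, with KRT8, a simple epithelial keratin, at 3463, 3853 and 3848 CPM (library-scaled counts) in the control libraries. The 11 line markers summed to between 210855 and 273410 counts in control and between 196592 and 244901 in P. chinensis libraries. By the test described below, 7 of them were lower with P. chinensis (63.6%, against 16.7% of all genes) and 1 was higher (9.09%, against 16.2%). The 12 hepatocyte marker genes summed to between 1140 and 1590 counts in control and between 486 and 601 in P. chinensis libraries, mostly from HNF4A (408 to 1283 counts over the 6 libraries) and FGA (37 to 187), while the defining ALB and AFP had at most 7 and 3 counts in any of them. The 7 fibroblast markers summed to between 85 and 117 counts in control and between 115 and 126 with P. chinensis, with COL1A1 at 43 to 77 and COL1A2 at 0 in all 6 libraries. The T cell gene CD3D had 0 counts in all of them, and CDKN2A had 2 counts in 1 control library and 0 in the other 5. The 6 immune marker genes summed to between 194 and 273 counts in control and between 374 and 474 in P. chinensis libraries, mostly from CD68 and ITGAM. The part of such genes in the results was not tested.

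Transcripts moved in both directions to a like extent with P. chinensis. Immediate early and p53 target genes were among the rises of largest size, and histone genes among the falls of largest size, when genes under 50 mean counts or with overlapping groups were left aside. At an adjusted p below 0.05 (edgeR quasi-likelihood test, Benjamini-Hochberg adjustment over the 13613 genes), 2211 genes were higher (16.2% of those tested) and 2267 were lower (16.7%), so that 32.9% were called in either direction. The groups did not overlap for 6143 genes, or 45.1%. Counts of called list members against control, given below, are to be read beside the 16.2% and 16.7% of all genes. The median log2 fold change over all genes was 0.02. Called genes that rose had a median log2 fold change of 0.54, and those that fell one of -0.43, so that most changes were under 2-fold. At least a 2-fold rise was called for 496 genes and at least a 2-fold fall for 399, and the changes reached 4-fold for 75 and 44 genes. Calls became more frequent with depth, from 14.2% of the genes in the lowest of 4 equal classes of mean count to 53.2% in the highest. With upper quartile scaling in place of TMM, rises made up 60.7% of the calls in place of 49.4%.

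**Figure D1:**
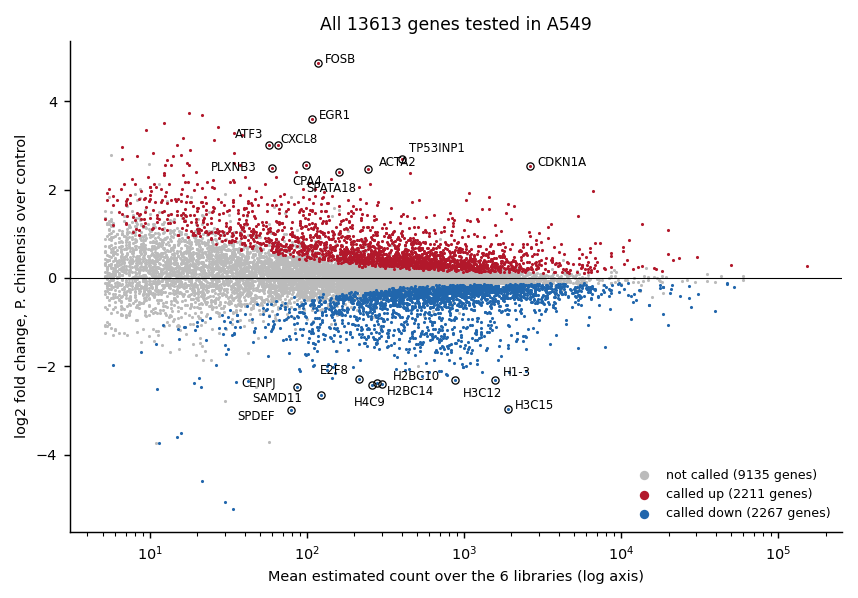
Each point is 1 of the genes tested, with its mean estimated count over the 6 libraries on a log axis and its log2 fold change, P. chinensis over control, on the vertical axis. Red points were called higher and blue points lower at an adjusted p below 0.05, and the circled genes are the 10 rises and 10 falls of largest size after the same restriction, led by FOSB at 4.87 and SPDEF at -2.98. Beside genes described in the text they hold the carboxypeptidase CPA4 (2.56), the semaphorin receptor PLXNB3 (2.50), SAMD11 (-2.65) and the centriole gene CENPJ (-2.47).

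The p53 target genes rose nearly as a block. Of 33 tested genes for cell cycle arrest, DNA repair and metabolism under p53, 31 were higher and 1 was lower, with a median log2 fold change of 1.24 against 0.02 for all genes, where 16.2% were called higher. MDM2 (chr12:68808177-68845544, plus strand), the negative regulator of p53, stood at 274, 279.8 and 273 CPM in the control libraries. In the P. chinensis libraries it stood at 1089, 1037 and 1134 CPM. The groups were far apart and tight within themselves, and MDM2 rose 3.94-fold (log2 fold change 1.98, SE 0.058, adjusted p = 5.53e-11). CDKN1A (chr6:36676460-36687337, plus strand), the CDK inhibitor p21, went from 68.3, 75.4 and 92.9 to 473, 444 and 471 CPM. All treated libraries were above all controls by more than the spread of either group, and the rise was 5.83-fold (log2 2.54, SE 0.08, adjusted p = 5.53e-11). TP53INP1 (chr8:94925972-94949378, minus strand), which promotes p53 activity and autophagy, had 12, 9.82 and 11.1 CPM in control and 67.3, 77.6 and 69.7 CPM in P. chinensis libraries, a 6.46-fold rise (log2 2.69, SE 0.10, adjusted p = 2.2e-10).

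The antiproliferative gene BTG2 went from 14.7, 14.7 and 15 to 79.7, 71.8 and 81.9 CPM (log2 2.38, adjusted p = 9.14e-11), and SPATA18, a gene of mitochondrial quality control, from 5.92, 3.93 and 5.49 to 27.4, 28.5 and 27.4 CPM (log2 2.40, adjusted p = 1.63e-08). Neither gene overlapped between the groups. SESN2, a sestrin that restrains mTORC1, rose by 1.70 and RRM2B, the p53-inducible ribonucleotide reductase subunit, by 1.28 on the log2 scale. GDF15, a secreted stress cytokine, was at 67.4, 71.4 and 62.2 CPM in control and at 191, 208 and 198 CPM with P. chinensis (log2 1.57, adjusted p = 9.68e-09), and TP53I3, a quinone oxidoreductase, rose by 1.28. The exceptions in the list were PTP4A1, a phosphatase, which fell by 0.46 on the log2 scale, and NOTCH1, which was not called (log2 -0.12, adjusted p = 0.218).

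Among 10 tested regulators of p53, 2 were higher, namely MDM2 and CCNG1, a cyclin that assists MDM2. Only 1 was lower, MDM4, the partner of MDM2 (log2 -0.35, adjusted p = 0.00445), and the median was 0.01. The other 7 were not called, among them USP7, the deubiquitinase of MDM2, at -0.20 (adjusted p = 0.147), and TP53RK, a p53 kinase, at 0.23 (adjusted p = 0.0883). Of all genes 16.2% were called higher and 16.7% lower, so the counts in this short list were near those shares.

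**Figure D2:**
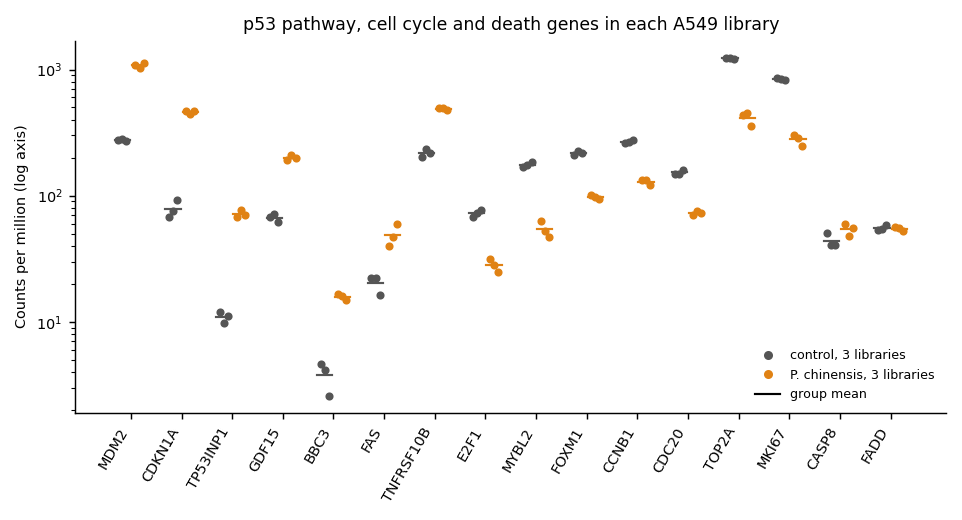
CPM on a log axis for 16 genes of the p53 pathway, the cell cycle and cell death, with 1 point per library, control in grey and P. chinensis in orange, and a line at each group mean. MDM2, CDKN1A and TP53INP1 rise clear of the controls, E2F1, MYBL2, TOP2A and MKI67 fall clear of them, and CASP8 and FADD overlap.

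The sequences that p53 binds were looked for near the start of each gene, since the targets moved together. The p53 consensus was searched on the GRCh38 genome as 20 bases without a spacer, allowing 1 base off the consensus and none in the central letters of either decamer, within 3000 bases on either side of the RefSeq start. Such a match was found for 53 of 11041 tested genes with a RefSeq promoter (0.48%), for 13 of 1784 genes called higher (0.729%), for 7 of 1874 called lower (0.374%) and for 33 of 7383 not called (0.447%). Of the 27 arrest and repair targets searched, 5 held one (18.5%). So did 1 of 9 p53 regulators (11.1%), which was CCNG1, a gene that stands in both of these lists, and 0 of 13 p53 targets for cell death. Of the matches in the arrest and repair list, 4 are shown on the strand of the gene, with every base of the match in capitals. The pair of matches with no mismatch belonged to PLK2, a polo-like kinase (log2 1.03), where the match lay 2198 bases before the start, and to ZMAT3, an RNA-binding protein (log2 1.32), where it was intronic and 1612 bases after the start. Those of CCNG1 (log2 0.54) and PTP4A1 (log2 -0.46) were intronic with 1 mismatch. A match is a description of the letters, and sites with more mismatches were not counted.
PLK2 chr5:58462274-58462293, minus strand: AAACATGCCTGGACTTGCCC
ZMAT3 chr3:179070188-179070207, minus strand: AAACAAGTCCAGACATGCCT
CCNG1 chr5:163437926-163437945, plus strand: GCACAAGCCCAGGCTAGTCC
PTP4A1 chr6:63573713-63573732, plus strand: GAACAAGTCTAGTCTTGTCC

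Genes of cell death known as p53 targets rose for the most part, while the list of caspases was mixed. Of 18 tested p53 targets for cell death, 15 were higher and none was lower (median log2 0.65). BBC3 (PUMA), which frees BAX and BAK1 from their inhibitors, stood at 4.66, 4.12 and 2.6 CPM in control and 16.6, 15.9 and 15 CPM with P. chinensis, a 4.04-fold rise without overlap (log2 2.02, SE 0.18, adjusted p = 7.82e-07). BAX, the pore-forming member, went from 103, 114 and 123 to 186, 187 and 187 CPM (log2 0.72, adjusted p = 6e-07). In the BCL2 family as a whole 8 of 20 genes were higher and 1 was lower (median 0.33), and the risers held inhibitors of death as well, such as BCL2A1 (log2 1.26), beside the promoter of death PMAIP1 (NOXA, log2 0.63).

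Some receptors for death ligands rose too, while TNFRSF1A, a receptor for TNF, was called lower. FAS stood at 22.4, 22.4 and 16.5 CPM in control and 40.1, 47 and 59.3 CPM in P. chinensis libraries (log2 1.26, adjusted p = 4.7e-05), and TNFRSF10B, the TRAIL receptor DR5, at 202, 233 and 217 and 491, 497 and 476 CPM (log2 1.17, adjusted p = 5.28e-09). TNFRSF10C, a decoy receptor for TRAIL, rose by 1.04 on the log2 scale, so the rise took in receptors with and without a death domain. Of 16 genes for death receptors and their signalling, 10 were higher and 1 was lower (median 0.46). Their adaptor FADD overlapped between the groups, at 53.8, 54.4 and 58.2 against 55.9, 55.5 and 52.6 CPM (log2 -0.022, SE 0.075, adjusted p = 0.86).

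Of 22 caspases, their substrate PARP1 and their regulators, 5 were higher and 5 lower, with a median of -0.01. Each count was 22.7% of the list, against 16.2% of all genes called higher and 16.7% called lower. The initiator CASP8 overlapped between the groups, at 51, 40.5 and 40.4 against 59.3, 48.1 and 54.9 CPM (log2 0.30, adjusted p = 0.148), while its relative CASP10 rose by 0.61 (adjusted p = 0.00148). PARP1, a DNA repair enzyme that caspases cleave, fell by 0.37 on the log2 scale (adjusted p = 4.84e-05). The inhibitors of apoptosis moved apart. BIRC3, an NF-kB target, rose by 1.62 (adjusted p = 1.96e-09), BIRC5 (survivin), which also serves mitosis, fell by 1.32 (adjusted p = 5.44e-09), and XIAP was not called (0.06, adjusted p = 0.499). These are transcript levels, and cleavage of caspases or PARP1 was not measured by them.

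The E2F arm of the cell cycle fell. Of 10 E2F and DP genes, 6 were lower and none was higher (median log2 -0.56, against 16.7% of all genes called lower). E2F8 (chr11:19224063-19241620, minus strand), an atypical family member, dropped from 40.3, 35.4 and 37.5 to 7.87, 8.91 and 5.83 CPM (log2 -2.30, SE 0.17, adjusted p = 1.17e-07). E2F1 (chr20:33675477-33686385, minus strand), an activator of S phase genes, dropped from 67.8, 72.8 and 77.1 to 31.6, 28.3 and 25 CPM (log2 -1.36, SE 0.092, adjusted p = 5.15e-08). The groups did not overlap for either gene, and E2F2, another activator, fell by 1.99 as well. Its dimer partner TFDP1 fell by less (-0.58, adjusted p = 1.24e-05). The activator E2F3 and the repressor E2F4 were not called, at -0.072 (adjusted p = 0.544) and -0.11 (adjusted p = 0.403).

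Among 12 genes of the DREAM and MuvB complexes and pocket proteins 7 were lower and none was higher (median -0.56). MYBL2 (chr20:43667019-43716495, plus strand), which replaces the pocket proteins on MuvB in cycling cells, fell from 167, 175 and 185 to 62.6, 52.6 and 47.2 CPM (log2 -1.70, SE 0.10, adjusted p = 7.77e-09). FOXM1, which activates mitotic genes, fell from 212, 226 and 218 to 101, 97.2 and 93.4 CPM (log2 -1.17, SE 0.073, adjusted p = 2.2e-08). The pocket protein genes split, with RBL1 (p107) at -1.01 (adjusted p = 6.37e-07) and RB1 at -0.11 (adjusted p = 0.14). Of 14 G1 cyclins, CDKs and their inhibitors 9 were lower and 2 higher: the phosphatase CDC25A fell by 1.22 and the CDK subunit CKS1B by 1.28, while cyclin E1 (CCNE1, 0.29, adjusted p = 0.0645) and CDK6 (-0.10, adjusted p = 0.262) were not called.

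Genes for DNA replication were lower almost throughout. For origin licensing and the MCM helicase 24 of 27 genes were lower and none was higher (median log2 -1.33). GINS2, a subunit of the active helicase, fell from 62, 58.2 and 62 to 15.3, 19.5 and 17 CPM (log2 -1.80, SE 0.12, adjusted p = 5.05e-08), and CDT1, which loads the helicase, from 71.6, 80.7 and 82.9 to 21.4, 28.7 and 20.2 CPM (log2 -1.73, SE 0.12, adjusted p = 8.71e-08). MCM5 and MCM10 fell by 1.62 and 1.67, while the origin recognition subunit ORC5 was not called (-0.16, adjusted p = 0.138). At the replication fork 29 of 33 genes were lower and 1 was higher (median -1.05), led by RFC3, a clamp loader subunit, at -1.55. Of 36 genes for homologous recombination and the Fanconi pathway 30 were lower and none was higher (median -1.15). RAD54L, a recombination motor, fell by 2.02 and FANCD2 by 1.72, and PALB2 was not called (-0.18, adjusted p = 0.453).

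Supply of DNA precursors split by gene. Of 21 dNTP genes 10 were lower and 2 were higher (median -0.26), with TK1, thymidine kinase, falling from 155, 161 and 169 to 59.8, 58.9 and 58.1 CPM (log2 -1.45, adjusted p = 3.41e-09). RRM1, the large ribonucleotide reductase subunit, fell by 1.23, opposite to its alternative partner RRM2B. Purine synthesis genes were lower in 11 of 15 cases with a smaller median of -0.30, as for PAICS at -0.57, and 10 of 17 serine and folate enzymes were lower (median -0.43). None of either list was higher.

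E2F elements were looked for in the 250 bases before each RefSeq start (RefSeq on GRCh38.p14), where 11041 of the 13613 genes tested had a promoter, or 81.1%. The letters searched on both strands were TTTGGCGC, TTTCCCGC, TTTCGCGC and TTTGCCGC. They stood in 4.4% of all promoters, in 7.74% of those of genes called lower and in 3.03% of those called higher. Among the fallen lists they stood in 6 of 22 licensing promoters (27.3%), in 8 of 29 fork promoters (27.6%) and in 11 of 47 histone promoters (23.4%). They also stood in 4 of 8 promoters of E2F and DP genes and in 2 of 10 of DREAM, MuvB and pocket protein genes. For serine and folate enzymes it was 2 of 11, and for the condensin, cohesin and chromosome list 3 of 20. Shares were lower in 4 of 37 kinetochore promoters (10.8%), 1 of 13 of mitotic kinesins (7.69%) and 2 of 30 of recombination and Fanconi genes (6.67%). They were lower as well in 1 of 19 promoters of dNTP genes (5.26%) and 0 of 20 of mitotic cyclins and kinases. The last 120 bases before the start are shown for members that hold a match there, with the element in capitals, because these genes fell together.
E2F1 chr20:33686386-33686505, minus strand: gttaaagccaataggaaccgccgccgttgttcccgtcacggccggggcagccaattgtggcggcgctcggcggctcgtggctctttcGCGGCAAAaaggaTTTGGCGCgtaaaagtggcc
CDT1 chr16:88803669-88803788, plus strand: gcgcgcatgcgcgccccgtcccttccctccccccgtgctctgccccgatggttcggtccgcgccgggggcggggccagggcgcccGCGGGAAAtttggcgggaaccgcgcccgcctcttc
GINS2 chr16:85688955-85689074, minus strand: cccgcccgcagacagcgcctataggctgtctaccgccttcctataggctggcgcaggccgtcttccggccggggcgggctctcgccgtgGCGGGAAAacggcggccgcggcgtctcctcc
MCM7 chr7:100101398-100101517, minus strand: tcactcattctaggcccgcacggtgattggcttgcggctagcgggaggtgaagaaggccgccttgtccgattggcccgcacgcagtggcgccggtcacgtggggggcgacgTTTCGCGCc

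Replication-dependent histone genes fell the most of all lists tested. Of 52 genes, 49 were lower and none was higher, with a median log2 fold change of -1.96. All 4 linker histone H1 genes and all 11 H4 genes were lower, as were 12 of 13 H2A, 13 of 14 H2B and 9 of 10 H3 genes, with class medians between -1.81 and -2.09. H4C9 (chr6:27139282-27139678, plus strand) dropped from 42.8, 47.5 and 46.4 to 9.16, 9.01 and 7.03 CPM (log2 -2.42, SE 0.14, adjusted p = 7.92e-09). H1-3 (chr6:26234212-26234987, minus strand) dropped from 288, 276 and 266 to 53.9, 58.4 and 54.7 CPM (log2 -2.31, SE 0.072, adjusted p = 5.53e-11). H2BC10 and H3C12 fell to a like extent (-2.39 and -2.32), with all treated libraries far below the controls. H2AC19 was not called, with 1 control and 1 P. chinensis library far above the others of their groups (29, 17.3 and 195 against 6.11, 9.11 and 44.1 CPM, log2 -1.99, adjusted p = 0.211), and H3C6 was not called either (-0.32, adjusted p = 0.151).

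Histone genes of a class share long stretches of sequence, so the estimate for a single copy depends on how shared reads were divided. H3C15, the largest fall of the list (log2 -2.96, SE 0.47, adjusted p = 0.000209), stood at 351, 390.1 and 324 CPM in control and at 66.4, 66.8 and 5.36 CPM with P. chinensis. Its neighbour H3C14 went the other way within the treated group, at 59.5, 70.5 and 112 and 21.9, 35.5 and 84.8 CPM (log2 -0.76, adjusted p = 0.3), so that P. chinensis replicate 3 was lowest for H3C15 and highest for H3C14. Summed over H3C13, H3C14 and H3C15, the values were 529, 575 and 556 CPM in control and 113, 129 and 120 CPM in P. chinensis libraries, a log2 ratio of -2.19 of the means. The sum was steady within each group where the single copies were not, and it was added after the values were seen. H4C14 and H4C15 had the same mean of 988 counts and the same log2 fold change of -2.01, and are counted as 2 genes here although their reads could not be told apart.

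Histone genes listed as replacement variants fell less. Of 10 replacement variants 7 were lower and 1 was higher (median -0.43), with H2AZ1 at -0.93 and H2AX, the variant phosphorylated at DNA breaks, at -0.93. Promoters of both lists were rich in short elements. In the replication-dependent list 40 of 47 held a CCAAT box (letters CCAAT, both strands), or 85.1% against 35.1% of all promoters. A TATA box (letters TATAAA on the strand of the gene) stood in 29 of 47, or 61.7% against 3.81%. Of the replacement variants 6 of 9 held a CCAAT box (66.7%) and 4 of 9 a TATA box (44.4%). The following replication-dependent promoters show both elements, in capitals, in the 120 bases before the start.
H1-3 chr6:26234988-26235107, minus strand: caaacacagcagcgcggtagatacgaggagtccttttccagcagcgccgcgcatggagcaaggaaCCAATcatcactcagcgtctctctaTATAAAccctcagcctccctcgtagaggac
H3C15 chr1:149852488-149852607, plus strand: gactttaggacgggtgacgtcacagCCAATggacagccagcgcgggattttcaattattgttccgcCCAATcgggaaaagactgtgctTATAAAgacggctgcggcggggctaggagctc

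Mitotic regulators fell without exception in their list. All 27 mitotic cyclins and kinases and their close partners were lower (median log2 -1.27). CDK1, the mitotic kinase, went from 169.7, 169.8 and 167 to 61, 62 and 49.6 CPM (log2 -1.55, SE 0.078, adjusted p = 3.31e-09), and its cyclin CCNB1 (chr5:69167135-69178245, plus strand) from 261, 268 and 277 to 133, 132 and 121 CPM (log2 -1.06, SE 0.053, adjusted p = 3e-09). CDC20, an activator of the anaphase promoting complex, went from 149.8, 149 and 160.3 to 70.4, 75.3 and 72.2 CPM (log2 -1.07, SE 0.08, adjusted p = 1.3e-07), and UBE2C, its ubiquitin-conjugating enzyme, fell by 1.58. In none of these genes did the groups overlap.

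The machinery that moves chromosomes fell with them. Of 45 kinetochore and centromere genes 42 were lower and none was higher (median -1.18), among them CENPA, the centromeric histone H3, at -1.61 and CENPF at -1.60. SKA1 was not called in spite of its size (-0.88, adjusted p = 0.112). All 13 mitotic kinesins were lower, between -1.55 and -1.09, with KIF11, which separates the spindle poles, at 271, 254 and 259 CPM in control and 102, 95 and 71.7 CPM with P. chinensis (log2 -1.54, adjusted p = 1.9e-08). The other kinesin genes listed did not follow. Of 23 tested, 10 were higher and 7 lower (median 0.10), with KIF9 at 0.73 and KIF26A at -0.91. In the condensin, cohesin and chromosome list 18 of 24 genes were lower and 1 was higher (median -0.85). TOP2A (chr17:40388525-40417896, minus strand), topoisomerase II alpha, dropped from 1242, 1235 and 1216 to 438, 451 and 355 CPM (log2 -1.57, SE 0.07, adjusted p = 1.44e-09), and the proliferation marker MKI67 (chr10:128096659-128126423, minus strand) from 851, 834 and 818 to 303, 287 and 248 CPM (log2 -1.58, SE 0.083, adjusted p = 5.06e-09). P. chinensis replicate 3 was the lowest library for both. In bulk RNA, fewer cells in the cycle and less transcript per cell cannot be told apart.

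Promoters of the mitotic list were described by the CHR element (letters TTTGAA or TTCGAA, both strands) and the CCAAT box, which may overlap each other. Both stood in 7 of 20 promoters of mitotic cyclins and kinases (35.0%), in 5 of 13 of mitotic kinesins (38.5%) and in 9 of 37 of kinetochore genes (24.3%), against 4.09% of all promoters. In the replication lists both stood in 1 of 22 licensing promoters (4.55%) and in 0 of 29 fork promoters. In the condensin, cohesin and chromosome list both stood in 3 of 20 promoters. The pair was not confined to mitotic lists, since it stood in 9 of 47 promoters of replication-dependent histones (19.1%). It also stood in 2 of 9 promoters of replacement variants (22.2%). Among genes called lower the share was 8.54%, and among genes called higher it was 3.2%. The promoters of mitotic genes with both elements in the last 120 bases are shown for 4 members, with CHR elements and CCAAT boxes in capitals, since they fell side by side.
CDC20 chr1:43358861-43358980, plus strand: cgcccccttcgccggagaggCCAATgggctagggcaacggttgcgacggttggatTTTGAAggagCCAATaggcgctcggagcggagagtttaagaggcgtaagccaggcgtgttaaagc
CCNB2 chr15:59105026-59105145, plus strand: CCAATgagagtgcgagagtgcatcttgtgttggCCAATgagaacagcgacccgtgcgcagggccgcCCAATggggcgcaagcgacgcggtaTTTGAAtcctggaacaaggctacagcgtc
PLK1 chr16:23678769-23678888, plus strand: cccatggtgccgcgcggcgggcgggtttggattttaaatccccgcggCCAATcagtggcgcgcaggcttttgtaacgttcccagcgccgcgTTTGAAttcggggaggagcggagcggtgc
MKI67 chr10:128126424-128126543, minus strand: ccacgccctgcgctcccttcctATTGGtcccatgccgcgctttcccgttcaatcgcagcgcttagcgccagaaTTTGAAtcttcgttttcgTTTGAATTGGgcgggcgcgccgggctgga

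**Figure D3:**
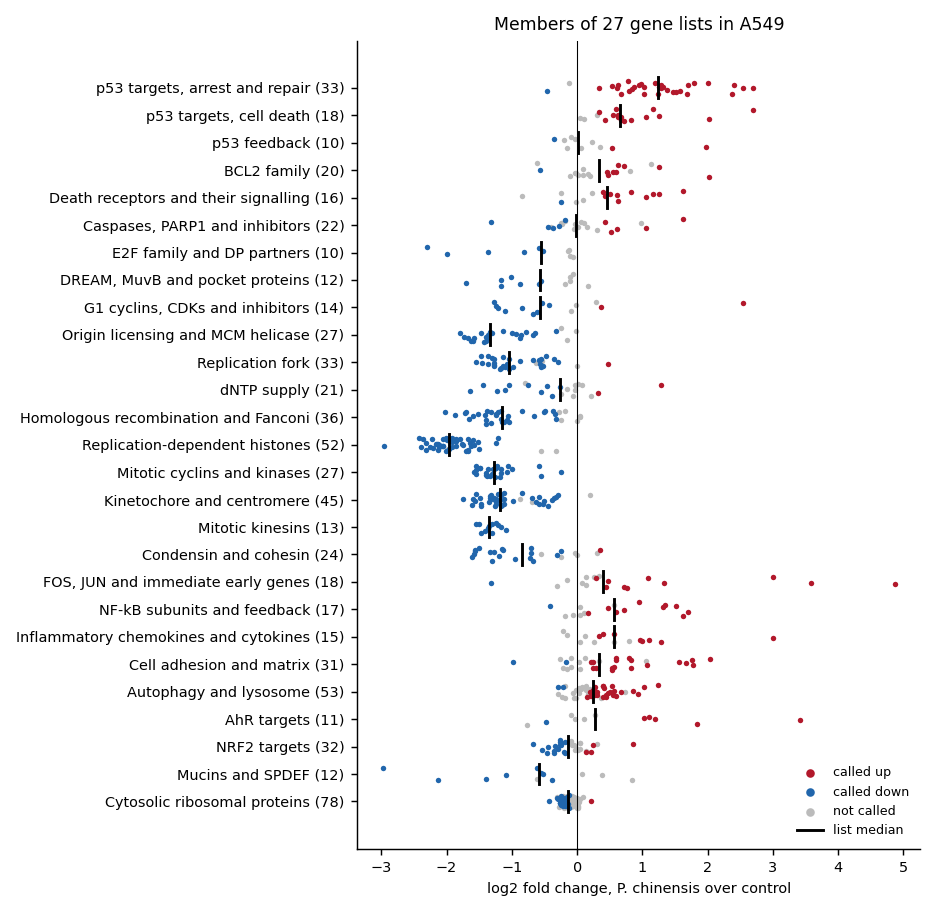
Each point is 1 tested gene of the list named on the left, with the number of tested members in brackets and its log2 fold change, P. chinensis over control, on the horizontal axis. Red points were called higher, blue points lower and grey points not called, and the black bar is the list median, which is 1.24 for the p53 arrest and repair targets and -1.96 for the replication-dependent histones.

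Immediate early genes held the rises of largest fold among genes with at least 50 mean counts. Of 18 FOS, JUN and other immediate early genes, which cells transcribe within minutes of a stimulus, 10 were higher and 1 was lower (median log2 0.39). FOSB (chr19:45467995-45475179, plus strand) stood at 0.126, 0.785 and 0.77 CPM in control, which is 1, 8 and 8 counts, and at 17.3, 15.3 and 35.8 CPM with P. chinensis (log2 4.87, SE 0.45, adjusted p = 5.21e-07). EGR1 (chr5:138465479-138469303, plus strand) went from 1.39, 1.28 and 1.73 to 14.9, 15 and 29.9 CPM (log2 3.59, SE 0.35, adjusted p = 1.33e-06). ATF3, a stress-induced repressor, went from 1.76, 1.67 and 0.578 to 12, 7.81 and 16.2 CPM (log2 3.01, SE 0.36, adjusted p = 9.1e-06). P. chinensis replicate 3 was highest for all 3 genes, and the lowest treated library was still well above every control. The AP-1 subunit FOSL1 rose by 1.33, whereas JUND (-0.15, adjusted p = 0.288) and KLF10 (0.14, adjusted p = 0.0855) were not called. NR4A1, the member that was lower, fell by 1.32 on the log2 scale, and FOS itself was not called (-0.31).

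The promoter of EGR1 holds 2 serum response elements (searched by the CArG consensus on 10 bases) in the 120 bases before its start, and that of FOSB holds a TATA box. They are shown with these elements in capitals as the promoters of the genes with the largest rises. A serum response element stood in 1.01% of all promoters, in 0.953% of those called higher and in 0.961% of those called lower, so that the shares were alike in both directions. An AP-1 element (letters TGACTCA, both strands) stood in 4.26% of promoters called higher, in 1.23% of those called lower and in 2.56% of all.
EGR1 chr5:138465359-138465478, plus strand: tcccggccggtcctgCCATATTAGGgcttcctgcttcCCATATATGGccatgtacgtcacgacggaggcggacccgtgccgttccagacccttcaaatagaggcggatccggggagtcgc
FOSB chr19:45467876-45467995, plus strand: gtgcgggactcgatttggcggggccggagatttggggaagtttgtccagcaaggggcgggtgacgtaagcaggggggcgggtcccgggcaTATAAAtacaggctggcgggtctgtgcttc

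**Figure D4:**
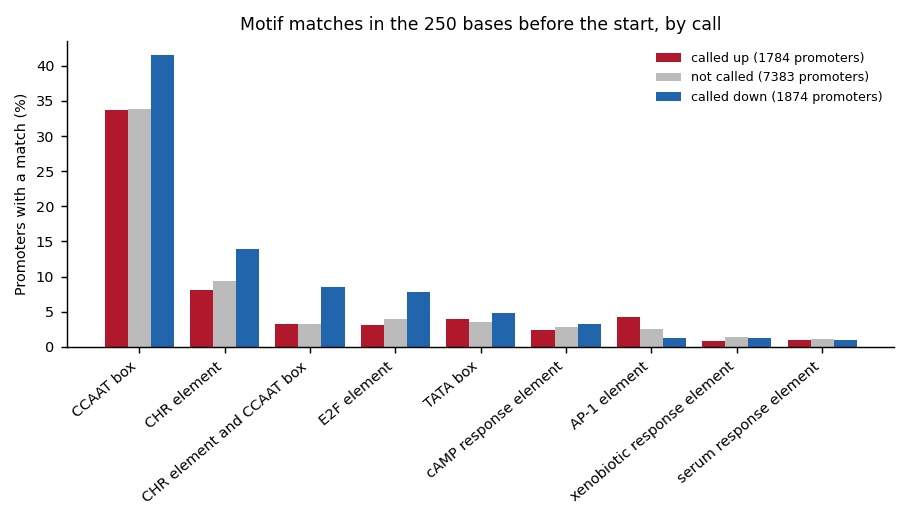
Bars give the percentage of promoters (250 bases before the RefSeq start) that hold a match to the element named below, for genes called higher (red, 1784 promoters), not called (grey, 7383) and called lower (blue, 1874). The CHR element with a CCAAT box stands in 8.54% of promoters called lower and 3.2% of those called higher, and the AP-1 element in 1.23% and 4.26%.

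Inflammatory genes rose in part. Of 17 NF-kB subunits and feedback genes 10 were higher and 1 was lower (median log2 0.56), with TNFAIP3 (A20), an inhibitor of the pathway, at 2.9, 4.42 and 7.7 CPM in control and 14.1, 14.6 and 22.1 CPM with P. chinensis (log2 1.70, SE 0.30, adjusted p = 0.000391). NFKB2, the p100 precursor, rose by 1.34. The canonical subunits moved little, with RELA at 0.17 (SE 0.057, adjusted p = 0.0291) and NFKB1 not called (0.055, SE 0.17, adjusted p = 0.846). The call of RELA was lost without control replicate 1 or 2 or P. chinensis replicate 3. Of 15 chemokines and cytokines 8 were higher and none was lower (median 0.56). CXCL8 (interleukin 8, chr4:73740519-73743716, plus strand) went from 0.378, 2.06 and 0.866 to 9.75, 9.01 and 12.9 CPM (log2 3.01, SE 0.41, adjusted p = 3.13e-05), and the monocyte attractant CCL2 from 20.2, 18.6 and 18 to 38.5, 35.1 and 40.5 CPM (log2 1.0, adjusted p = 0.000162). IL18 was not called (0.12, adjusted p = 0.271). Among 17 feedback genes of the ERK pathway 6 were higher and 2 lower, led by the ERK phosphatase DUSP6 at 1.46. Of 27 interferon-stimulated genes 7 were higher (25.9%, against 16.2% of all genes) and 2 lower (7.41%, against 16.7%). IRF1 and the peptide transporter TAP1 were at 1.15 and 1.45 and the antiviral synthetase OAS1 at -1.03. With upper quartile scaling 11 of the interferon-stimulated genes were higher and 2 lower.

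Genes of laminins and integrins rose in part. Beside the counts in this and the next paragraph, 16.2% of all genes were called higher and 16.7% lower. Of 31 adhesion and matrix genes 18 were higher and 2 lower (median log2 0.33). LAMB3, a chain of an epithelial laminin, rose by 1.76 (adjusted p = 1.23e-09), and ITGA2, a collagen and laminin receptor chain, went from 94.5, 87 and 97.3 to 293, 269 and 327 CPM (log2 1.67, adjusted p = 1.1e-09). ITGB1, the common beta chain, was not called (0.034, adjusted p = 0.519). ACTA2, smooth muscle actin, rose from 8.06, 7.85 and 7.03 to 47.4, 45.6 and 35.7 CPM (log2 2.46, SE 0.13, adjusted p = 5.47e-09). In the same direction, 12 of 24 YAP and TGF-beta responsive genes were higher and 2 lower, with CCN2, a matricellular protein, at 1.15.

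Of 12 mucin genes and their regulators 8 were lower and none was higher (median -0.59). SPDEF (chr6:34537802-34556333, minus strand), a transcription factor of goblet cells, dropped from 14.5, 16.1 and 14.1 to 1.88, 1.7 and 1.57 CPM (log2 -2.98, SE 0.28, adjusted p = 7.53e-07). MUC5B, a secreted airway mucin, dropped from 234, 236 and 193 to 45.9, 60.3 and 44.4 CPM (log2 -2.13, adjusted p = 6.61e-08), and MUC5AC from 323, 339 and 321 to 121, 130.1 and 124 CPM (log2 -1.39, adjusted p = 7.27e-10). None of the 3 overlapped between the groups. The keratins split, with KRT19 higher by 1.65 and KRT18 lower by 0.25 on the log2 scale. In the EGF receptor family the receptor ERBB3 fell by 1.66 and the ligand HBEGF rose by 1.53. Of the 14 genes of that family 5 were higher (35.7%) and 2 lower (14.3%). HNF4A, an endodermal transcription factor that A549 also transcribes, fell from 114, 109.8 and 124 to 47.9, 43.9 and 45.6 CPM (log2 -1.34, adjusted p = 2.53e-08).

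Stress and metabolic programs moved less, and mostly in both directions. Beside the counts in this and the next 2 paragraphs, 16.2% of all genes were called higher and 16.7% lower. Of 11 aryl hydrocarbon receptor targets 5 were higher and 1 was lower: TIPARP, which feeds back on the receptor, went from 68.7, 64 and 62.3 to 231, 205 and 260.3 CPM (log2 1.84, adjusted p = 2.11e-08), and CYP1B1 rose by 1.2. CYP1A1, the classic target of the receptor, chosen after its values were seen, was at 0.252, 0.491 and 0.193 CPM in control and at 6.34, 4.4 and 5.18 CPM with P. chinensis (log2 3.41, adjusted p = 2.7e-05), while NQO1 was not called (-0.038, adjusted p = 0.458). Of 32 NRF2 targets 16 were lower and 4 higher (median -0.15), with PGD, an enzyme of the pentose phosphate pathway, at -0.54, the amino acid transporter SLC7A5 at -0.67 and the autophagy receptor SQSTM1 at 0.85. The 29 targets of ATF4 gave 9 higher and 9 lower genes, the former with ATF3 and with DDIT3 (CHOP), which went from 4.66, 4.32 and 5.87 to 14.2, 10.2 and 21.2 CPM (log2 1.58, SE 0.28, adjusted p = 0.00041). Endoplasmic reticulum chaperones (7 of 22 higher, 4 lower) and cytosolic heat shock genes (1 of 16 higher, 7 lower) changed by little, as HERPUD1 at 0.56 and HSP90AA1 at -0.41 show. The 7 lower heat shock genes were 4 with upper quartile scaling and without control replicate 1 or 2 or P. chinensis replicate 1 or 2.

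In lipid synthesis, 6 of 25 cholesterol genes were higher and 5 lower, and 10 of 19 fatty acid genes were lower and 5 higher, with the fatty acid regulator SREBF1 at -0.91 and the desaturase SCD at -0.61. The 5 higher fatty acid genes were 2 without control replicate 2 or 3, and 3 without P. chinensis replicate 1 or 3 or with only the 6 libraries fitted. Hypoxia and glycolysis genes were lower in 12 of 30 cases and higher in 5, but with upper quartile scaling 8 were lower and 8 higher. Autophagy and lysosome genes were higher in 28 of 53 cases and lower in 2 (median 0.25), among them WIPI1, which acts in autophagosome formation, at 1.24 and DRAM1 at 1.02. ABCA1, the cholesterol exporter, rose from 48.4, 43.6 and 45.1 to 175, 163 and 186 CPM (log2 1.93, adjusted p = 5.47e-09), with 6 of 16 ABC transporter genes higher and none lower. Of 6 metallothionein genes and partners 1 was higher, the zinc exporter SLC30A1 (0.27).

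MYC and the ribosome moved by small amounts. MYC went from 213, 215 and 235 to 173, 173 and 211 CPM (log2 -0.25, SE 0.07, adjusted p = 0.0125), and the call was lost without control replicate 3 or P. chinensis replicate 1 or 2. Of 34 MYC network and ribosome biogenesis genes 18 were lower and 2 higher (median -0.22), and the 2 higher were the MYC antagonists MXD4 (1.59) and MXD1 (1.30). The nucleolar protein gene NCL fell by 0.62. Of 78 cytosolic ribosomal proteins 23 were lower (29.5%, against 16.7% of all genes) and 1 was higher, by small steps (median -0.14). In the highest of 4 classes of mean count, 1176 of 3403 genes were called lower. The count of lower ribosomal proteins was 8 without P. chinensis replicate 1, 11 without P. chinensis replicate 2, 12 without either control replicate 1 or 2, and 8 with upper quartile scaling. Of the 13 mitochondrially encoded subunits 1 was higher, MT-CO1 (0.28, adjusted p = 0.00269), and with only the 6 libraries fitted 3 were lower.

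Against control, B. chinense and P. umbellatus gave medians of 1.035 and 0.898 for p53 arrest and repair targets (1.236 with P. chinensis). For replication-dependent histones their medians were -1.367 and -1.443 (-1.957), and for mitotic cyclins and kinases -1.035 and -0.975 (-1.275). For adhesion and matrix genes they were 0.325 and 0.4 (0.333), so these lists moved in the same direction with all 3 extracts. The direct comparison with the other herbs asks what sets P. chinensis apart. Its contrast gives the control libraries no weight, but they shared the filter, the scaling and the estimate of the spread. Against the mean of the B. chinense and P. umbellatus groups in A549, 161 genes were higher with P. chinensis (1.18%) and 324 were lower (2.38%). Most members of the histone list and some of the cell cycle lists were lower still than with the other herbs. Of the 52 replication-dependent histones 38 were lower than with the other herbs (median difference -0.53), as were 12 of 27 licensing genes (-0.33), 11 of 45 kinetochore genes (-0.24) and 8 of 27 mitotic cyclins and kinases (-0.25), with none higher in these lists. Without P. chinensis replicate 3 these counts were 18, 4, 0 and 1, without replicate 1 the first, second and last were 23, 7 and 5, and without replicate 2 the kinetochore count was 6. SPDEF, at 1.88, 1.7 and 1.57 CPM with P. chinensis, stood at 2.98, 3.25 and 6.29 CPM with B. chinense and 5.03, 4.51 and 5.83 CPM with P. umbellatus (difference -1.32, SE 0.26, adjusted p = 0.00983). CENPU, a centromere protein, stood at 5.05, 5.5 and 3.42 CPM against 11.1, 10.7 and 10.2 and 9.46, 8.01 and 5.95 CPM (difference -0.96, SE 0.18, adjusted p = 0.0109). The 2 herb groups lay between P. chinensis and control for both genes. RAD51AP1, a recombination factor, and H4C13 were lower by 0.94 and 0.93.

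Some immediate early genes were higher than with the other herbs. Of the 18 tested 8 were higher and none was lower, and the count of higher genes was 3 without P. chinensis replicate 1 and 2 without replicate 3. FOSB, at 17.3, 15.3 and 35.8 CPM with P. chinensis, stood at 3.2, 4.87 and 3.07 CPM with B. chinense and at 2.78, 3.31 and 3.1 CPM with P. umbellatus (difference 2.69, SE 0.28, adjusted p = 0.000372). EGR1 stood at 3.87, 3.9 and 4.1 and 2.48, 1.38 and 3.35 CPM with these herbs (difference 2.63, SE 0.25, adjusted p = 0.000297). CXCL8 and DDIT3 were higher by 1.44 (adjusted p = 0.0138) and 1.39 (adjusted p = 0.00464). Of the p53 arrest and repair targets 8 of 33 were higher and none was lower, with a median difference of 0.23 over the list. That count was 4 without P. chinensis replicate 2, 2 without replicate 3, 13 with DESeq2 and 14 when genes whose mean was under 50 counts were left out. MDM2 was higher by 0.47 (SE 0.047, adjusted p = 0.000372) while CDKN1A did not pass the test (0.23, SE 0.062, adjusted p = 0.0563). In the other direction 3 of 11 aryl hydrocarbon receptor targets and 9 of 32 NRF2 targets were lower, such as CYP1B1 (-0.63, adjusted p = 0.01) and PGD (-0.21, adjusted p = 0.00561).

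H3C14 and H3C15, near-identical copies as described above, were called in opposite directions in this comparison (2.22, adjusted p = 0.0221, and -1.65, adjusted p = 0.049), while their sum with H3C13 lay between 113 and 129 CPM with P. chinensis and between 144 and 239 CPM with the other herbs. This comparison rested on P. chinensis replicate 3 more than on the other libraries of its group. Without replicate 1 or replicate 2 of P. chinensis 74 and 96 genes were higher, in place of 161. Without replicate 3, 34 genes were higher and 87 lower.

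**Figure D5:**
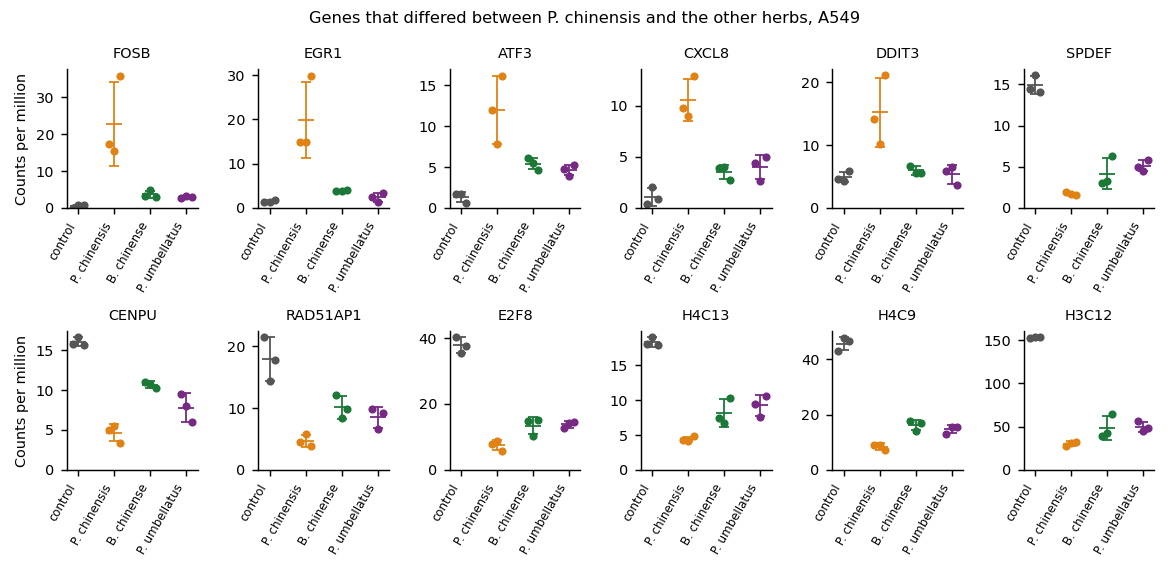
CPM in each A549 library for 12 genes, in the control, P. chinensis, B. chinense and P. umbellatus groups, with 1 point per library and bars for the mean and SD of 3 libraries. FOSB, EGR1, ATF3, CXCL8 and DDIT3 are highest with P. chinensis, where replicates are widely spread, and SPDEF, CENPU, RAD51AP1, E2F8 and the histone genes are lowest with it.

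The same extract was given to Huh7 cells. In 1 fit over all 24 libraries the log2 fold change of MDM2 was 2.0 in A549 and -0.41 in Huh7, and that of MKI67 was -1.56 and -0.56. The difference between the lines passed the test for both (MDM2 2.41, SE 0.10, adjusted p = 1.78e-12, and MKI67 -1.0, SE 0.14, adjusted p = 1.67e-05). It did not pass for GDF15 (0.18, adjusted p = 0.632) or TFDP1 (-0.08, adjusted p = 0.677).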

How the data were processed

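Total RNA (RNeasy Plus) was made into stranded libraries after depletion of ribosomal RNA. Per the submitters' processing notes and the study's methods, the authors ran FastQC and estimated transcript abundance with kallisto against Ensembl GRCh38.p13. The deposited table holds estimated counts per gene that are whole numbers, with 1 column per sample, and all columns were matched to a sample by name. Gene symbols and positions came from GENCODE on GRCh38, and promoter sequences from RefSeq on GRCh38.p14. Of the 14585 identifiers, 14572 had a symbol and 14584 were protein-coding.

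The 12 A549 libraries were fitted together in edgeR 4.0.16 (R 4.3.3) with TMM scaling, a prior count of 2 and a two-sided quasi-likelihood test, without covariates. Adjusted p-values (Benjamini-Hochberg) took in all 13613 genes, and a gene was called at an adjusted p below 0.05. Values per library are TMM-scaled CPM. The second contrast set P. chinensis against the mean of the other herbs, and differences between lines came from a fit of all 24 libraries. Alternatives were DESeq2 1.42.0, RLE or upper quartile scaling, other filters, only the 6 libraries, a replicate block and leaving out each library. The code was tested on simulated counts with known changes.

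The members and gene lists were chosen with earlier results of these data known. Some genes stand in more than 1 list, such as CCNG1 and ATF3, so counts of different lists can share members. The text names fixed key genes, the 10 rises and 10 falls of largest size against control (called, mean of at least 50 counts, no overlap), the 5 highest and 5 lowest against the other herbs, and in each list up to 4 called members of largest change and up to 2 uncalled members of highest count. Genes outside this rule (genes shown for their sequence, single exceptions in a list, H3 and H4 copies, markers of other cell types, FOS, NR4A1 and CYP1A1) were named after their values were seen. The labels share replicate numbers between groups, but same-numbered libraries did not deviate together (r from -0.03 to 0.003), so no pairing was used. Depth per library is given with the results and covers counting error only. Some genes and 1 sequence covered by these rules are not reported here.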

Additional observations from a re-analysis of the deposited data

Results flagged for a closer look

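The response to P. chinensis differed between A549 and Huh7 cells for 12 of the key genes, by the interaction test of edgeR over all 24 libraries. The differences are log2 fold changes in A549 minus those in Huh7. Among p53 targets they were 2.41 for MDM2, 2.48 for TP53INP1, 1.88 for CDKN1A and 0.72 for TP53I3, with adjusted p-values of 1.78e-12, 1.1e-10, 6.6e-08 and 0.00163. MDM2 went in opposite directions, at 2.0 in A549 and -0.41 in Huh7. CDKN1A and TP53I3 were called higher in Huh7 as well, by 0.69 and 0.59. GDF15 rose in both lines, by 1.59 in A549 and 1.41 in Huh7, and its difference did not pass the test (0.18, adjusted p = 0.632). Among cell cycle genes the differences were -0.83 for E2F1, -1.12 for FOXM1, -1.32 for MYBL2, -1.2 for CCNB1, -1.35 for CDC20, -0.89 for TOP2A and -1.0 for MKI67, with adjusted p-values between 3.27e-08 and 0.00607. The difference was -0.47 for MYC (adjusted p = 0.00708). TFDP1 fell in both lines, and its difference did not pass the test (-0.08, adjusted p = 0.677). The lines differ in tissue of origin, in p53 (wild-type in A549 and mutant in Huh7, by the study's account) and in much else. Which of these goes with the differences was not tested.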

How the results depend on the processing

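Against control, the counts of genes higher and lower lay between 1841 and 2751 and between 1778 and 2306 under DESeq2, other scalings and filters, a fit of only the 6 libraries, a replicate block and leaving out each library, against 2211 and 2267 in the report. Asking for a log2 fold change of at least 1 left 496 and 399 by construction. Leaving out 1 library gave from 1841 to 1938 genes higher and from 1957 to 2046 lower. Against the other herbs, DESeq2 called 4.03% of genes lower in place of 2.38%, and the cause was not tested. Leaving out 1 P. chinensis library there, with fewer samples, gave from 0.25 to 0.705% of genes higher in place of 1.18%, and from 0.639 to 1.82% lower. With a replicate block the counts were 2082 higher and 2165 lower against control, and 114 higher and 245 lower against the other herbs, and same-numbered libraries share only a number. Of 1794 recomputed log2 fold changes of named genes, 1765 kept direction and side of the threshold, 9 lost the call (MYC and RELA), 12 gained one (NOTCH1, TP53RK, USP7, CCNE1, SKA1, KLF10 and ITGB1) and 8 changed sign, all of uncalled genes near 0. FADD was at 0.04 and NQO1 at 0.02 with upper quartile scaling, which moved the median of all genes by 0.061, and FADD ranged from -0.04 to 0.02 and COL1A1 from -0.11 to 0.23 when 1 library was left out. In the gene lists, counts of 1 or 2 members in the less common direction often changed when 1 library was left out. All 57 recomputed differences between the lines that are reported here kept their side of the threshold. Depth limits the calls of low genes, of which 14.2% in the lowest class of counts were called.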

Other observations

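Gene families outside the lists of the report, chosen after the data were seen, moved in part, and their counts are given as a description beside the shares of all genes called higher (16.2%) and lower (16.7%). Of 34 SRSF and HNRNP splicing factors 24 were lower and none was higher (median log2 fold change -0.44, lowest for HNRNPA3 at -0.72). Of 22 nuclear pore genes 20 were lower and none was higher (median -0.44, lowest for NUP155 at -0.79). Mitochondrial ribosomal proteins were lower in 24 of 77 cases, by a median of -0.21, whereas of 38 complex I subunits 1 was lower and none was higher. Among 36 proteasome subunits 13 were lower and 2 higher, the latter led by PSMB10, a catalytic subunit of the immunoproteasome, at 2.06.

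Of 21 tubulin genes 7 were lower and 2 higher, and the alpha tubulins moved apart, with TUBA1B at -1.07 and TUBA1A at 0.99. Semaphorins and plexins, which guide cells and axons, were higher in 11 of 25 cases and lower in 3, between SEMA6B at -1.66 and PLXNB3 at 2.50. Of 262 SLC transporters 45 were higher and 34 lower, with the largest rise for SLC12A8 at 2.29.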
